A study of Rattus norvegicus with 12 samples.

Results

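The genes described here are those of fatty acid uptake, oxidation and ketone use in the neonatal rat ventricle. They were taken by gene symbol from a list of 41 genes in 9 roles, from the lipase and transporters at the cell surface to the mitochondrial enzymes and the uncoupling proteins. Of the 41, 40 had a row in the deposited table of 32545 genes, and 39 passed the filter on low values that left 13910 genes for testing. Eci2 had no row under that symbol, and Pnpla2 fell below the filter. RNA was sequenced from the free wall of the left ventricle (LV) and the right ventricle (RV) of rats of the strain labelled SD at postnatal day 7. On postnatal day 1 the rats had either a sham operation (sham) or an operation that opened a fistula between the abdominal aorta and the inferior vena cava (AVF), which loads both ventricles with extra volume (volume overload, VO). There were 12 libraries, 3 for each ventricle of the sham rats (sham LV, sham RV) and 3 for each of the VO rats (VO LV, VO RV). The labels do not say which LV and RV libraries came from the same rat, nor how many rats stand behind a library, so p-values measure the spread between these libraries.

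Long-chain fatty acids reach the heart bound to albumin or inside lipoprotein triglyceride, which lipoprotein lipase splits at the capillary wall. Inside the cell they are carried by binding proteins, joined to coenzyme A by acyl-CoA synthetases, passed into mitochondria as acylcarnitines, and shortened in repeated rounds of beta-oxidation whose electrons enter the respiratory chain through electron transfer flavoprotein. Malonyl-CoA blocks the carnitine step. The heart moves from glucose and lactate towards fatty acids in the days after birth, and the milk-fed newborn also burns ketone bodies.

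Between 14121713 and 16871371 reads on genes stood behind each library, and 17128 to 17807 genes were above 0. The summed FPKM (fragments scaled by gene length and library depth) of 10 cardiomyocyte marker genes was 19218 to 30564, so that every library carried the defining transcripts of heart muscle. Of 5 atrial marker genes, Sln, Bmp10 and Myl7 stood apart in 2 RV libraries. Sln, a calcium pump regulator of the atrium, was at 388 FPKM in VO RV replicate 2 and 97.7 FPKM in sham RV replicate 1 and at no more than 0.68 FPKM in the other libraries. Bmp10, an atrial growth factor, was at 72.4 and 12.6 FPKM in the same 2 libraries. Myl7 was at 463 and 138 FPKM there and at no more than 75.5 FPKM in the others. The sum of the 5 genes was 4559 FPKM in VO RV replicate 2, the highest of all, but in sham RV replicate 1 it was 1065 FPKM, within the 706 to 1729 FPKM of the LV libraries, where the other 4 RV libraries had 212 to 311 FPKM. That sum includes Nppa, which was at 519 to 1423 FPKM in the LV libraries. VO RV replicate 2 also had the lowest summed FPKM of the cardiomyocyte markers, 19218, and the highest of the fibroblast markers, 4935. The counts of members in the comparisons that hold these libraries are therefore also given without them. The part of these transcripts in the differences was not tested. In bulk tissue, fewer cells of a type and less RNA per cell cannot be told apart.

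Levels spanned several orders of magnitude when scaled per length. Fabp3, the heart-type fatty acid binding protein, had the highest mean over the 12 libraries at 1469 FPKM, followed by Fabp4 at 653 FPKM, Etfb at 396 FPKM and Acadl at 319 FPKM. Among the low members were Acaca at 3.22 FPKM, Ucp3 at 1.70 FPKM, Acsl6 at 1.34 FPKM and Bdh1 at 1.27 FPKM. Echs1, the second enzyme of the beta-oxidation spiral, was listed at 0.424 to 3.39 FPKM, whereas the other 10 beta-oxidation members in the table were at 57.9 to 404 FPKM. Pnpla2, the lipase that starts triglyceride breakdown, was listed at 0 in 6 libraries and at no more than 0.164 FPKM in the rest. Whether these 2 rows catch all reads of their genes cannot be told from the table, so their values are given as listed and not as the genes' levels. Summed over the members in the table, the level was 5581 to 5733 FPKM in sham LV, 5055 to 6013 FPKM in sham RV, 5828 to 5988 FPKM in VO LV and 4346 to 5865 FPKM in VO RV.

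Relative to each gene's own mean over the 12 libraries, the members were lowest in VO RV replicate 2 and sham LV replicate 2 and highest in sham RV replicate 2. The lowest pair also had the lowest mitochondrial shares of reads, 16.0% in VO RV replicate 2 and 14.4% in sham LV replicate 2 against 17.3% to 26.2% in the others, and the lowest array weights in limma, 0.451 and 0.446, and the part of these in the levels was not tested. The median deviation of the 39 members was -0.03, -0.19 and -0.08 on the log2 scale in sham LV replicates 1 to 3, and -0.04, 0.16 and 0.10 in sham RV replicates 1 to 3. In VO LV replicates 1 to 3 it was 0.10, 0.08 and 0.08, and in VO RV replicates 1 to 3 it was 0.05, -0.23 and -0.13. The 3 VO LV libraries were thus close together and all above 0, while VO RV ranged from above 0 to the lowest value of all. In VO LV, 28 to 32 of the 39 members were above their mean, and in VO RV 5 to 25 were.

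**Figure D1:**
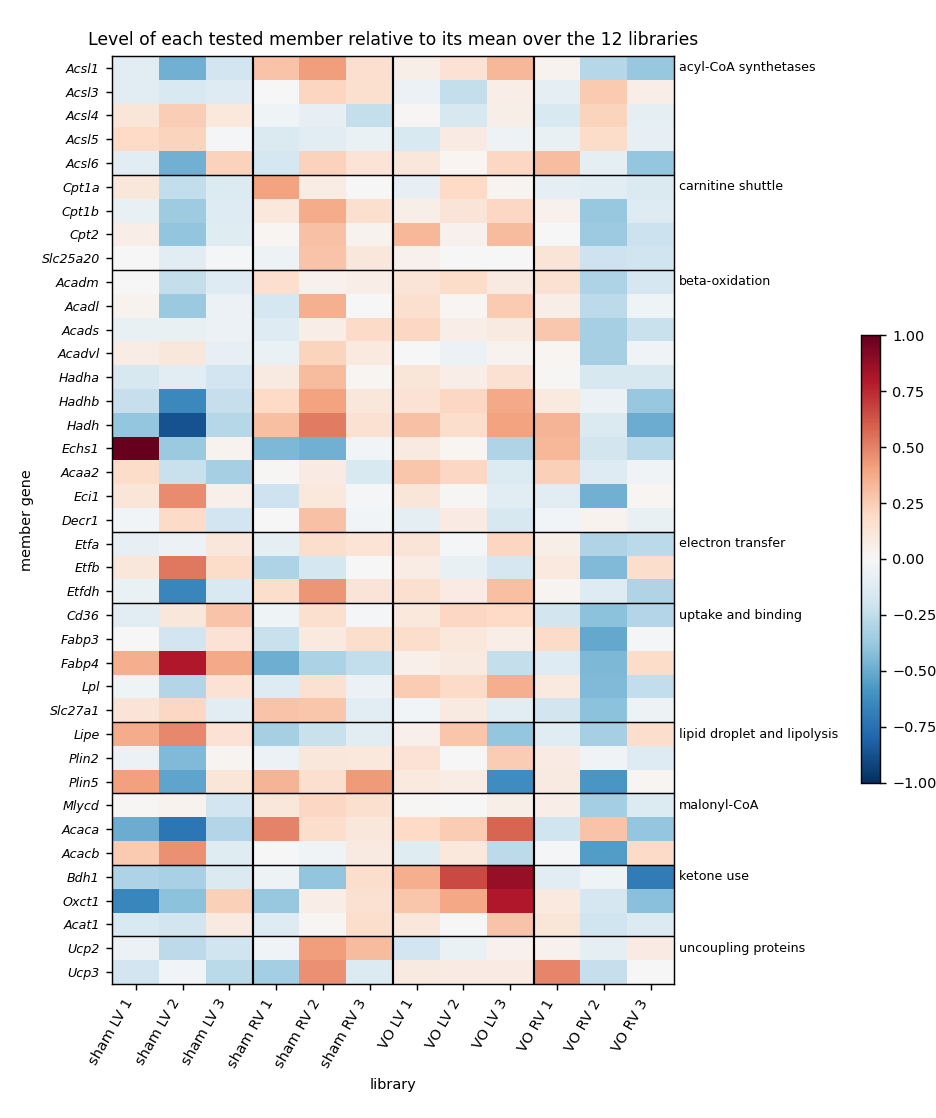
Level of each tested member (rows, by role) in each of the 12 libraries (columns, by group) as the log2 difference from the gene's mean over the 12 libraries; red is above and blue below that mean, and the colour scale is capped at 1. Hadh, Hadhb and Acsl1 are blue in the 3 sham LV libraries and red in the 3 sham RV and 3 VO LV libraries, whereas Fabp4 has the opposite colours in sham LV and sham RV.

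The members called between the ventricles or in their response to VO included Hadhb, the beta subunit of the mitochondrial trifunctional protein, which carries out the last steps of long-chain beta-oxidation. The alpha subunit Hadha was called in no comparison, although its difference between the responses was called with quantile normalization, with array weights, without sham RV replicate 3 and without VO RV replicate 1. The genes of both subunits lie head to head. In the deposited table Hadhb lies at chr6:27555412-27582995 on the minus strand and Hadha at chr6:27589657-27629175 on the plus strand, with 6661 bases between them (the build is not given in the sources used here). In the RefSeq annotation of GRCr8 the start sites are closer, at 31907500 for Hadhb and 31907801 for Hadha on chromosome 6, with 300 bases between them. Because 1 stretch of DNA lies upstream of both genes, 200 bases of it are shown, together with the 250 bases upstream of Hadh, the enzyme that oxidises shorter 3-hydroxyacyl chains and had the widest difference between the sham ventricles among the beta-oxidation genes called. Capitals mark GGGCGG, the core of the GC box, on either strand (CCGCCC is its reverse complement). The first sequence is at chr6:31907551-31907750 on the plus strand and the second at chr2:222504447-222504696 on the minus strand, both from RefSeq GRCr8 and written 5′ to 3′.
Hadha and Hadhb shared upstream: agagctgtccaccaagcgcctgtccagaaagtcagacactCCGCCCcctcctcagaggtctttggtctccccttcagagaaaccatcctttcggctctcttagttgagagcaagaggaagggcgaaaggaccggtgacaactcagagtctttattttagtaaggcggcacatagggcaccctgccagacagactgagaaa
Hadh upstream: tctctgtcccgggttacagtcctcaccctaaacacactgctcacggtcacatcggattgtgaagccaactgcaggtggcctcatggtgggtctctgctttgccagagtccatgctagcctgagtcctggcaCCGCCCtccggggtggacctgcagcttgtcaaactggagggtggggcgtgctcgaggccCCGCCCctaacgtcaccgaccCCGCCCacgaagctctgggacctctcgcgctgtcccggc

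The 200 printed bases between Hadha and Hadhb held 1 match and the 250 upstream of Hadh held 3. The Hadhb window held 1 further match outside the printed bases, with its first base at -31 from the Hadhb start site. RefSeq had an upstream window for 32 of the 40 members in the table, and none for Acaa2, Acaca, Acadl, Cpt1b, Decr1, Fabp4, Lipe and Lpl. Over 250 upstream bases and both strands, GGGCGG was in 20 of the 32 member windows (62.5%) and in 30.5% of all 33469 windows, which include genes of every kind. CCAAT was in 10 of the 32 (31.2%) against 34% of all windows. These 2 motifs were added after the sequences had been seen. TNAAGGTCA, the element bound by oestrogen-related receptors, was in 0 of the 32 and in 1.04% of all windows, and the DR1 element of nuclear receptors in 0 of the 32 and in 0.368% of all windows. Matches are given as a description of these windows.

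Sham LV and sham RV were compared to describe how the normal ventricles differ in the first week. The acyl-CoA synthetase Acsl1 and the beta-oxidation enzymes Hadh and Hadhb had lower levels in sham LV than sham RV had, and the binding protein Fabp4 was higher. These 4 of the 39 members (10.3%) passed both thresholds, an adjusted p under 0.05 in limma's test across 13910 genes and a fold over 1.3, as did 3.85% of all genes tested (1.5% higher and 2.35% lower in sham LV). Without adjustment, at p under 0.05 and the same fold, 3 members were higher and 7 lower in sham LV (25.6%). Of all genes 17.8% were past these limits, 8.19% higher and 9.63% lower. All 3 sham LV libraries were on one side of all 3 sham RV libraries for 16 members (41%), 5 higher and 11 lower, against 32.2% of all genes, 15.6% higher and 16.6% lower. The log2 difference was above 0 for 9 of the 39 and below 0 for 30, while it was above 0 for 51.6% of all genes. Its median was -0.16, beside a median of 0.01 over all genes.

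Leaving out single libraries moved the 4 calls. No member was called without sham LV replicate 1 or 2, without any 1 of the 3 sham RV libraries, or without VO LV replicate 1 or 2, which enter through the shared estimate of the spread. Calls over all genes also fell in these fits, from 536 to between 0 and 185. Only Fabp4 was called without sham LV replicate 3 or VO LV replicate 3, where 420 and 456 of all genes were called. Without sham RV replicate 1 and VO RV replicate 2 together, the libraries with Sln and Bmp10, 0 members were called and 9 passed without adjustment of p, the median was -0.18, and 7 of all 13910 genes were called. The 4 members then had log2 differences of -0.55 (Acsl1), -0.62 (Hadhb), -0.85 (Hadh) and 0.79 (Fabp4), with adjusted p of 0.108 to 0.141 by limma.

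**Figure D2:**
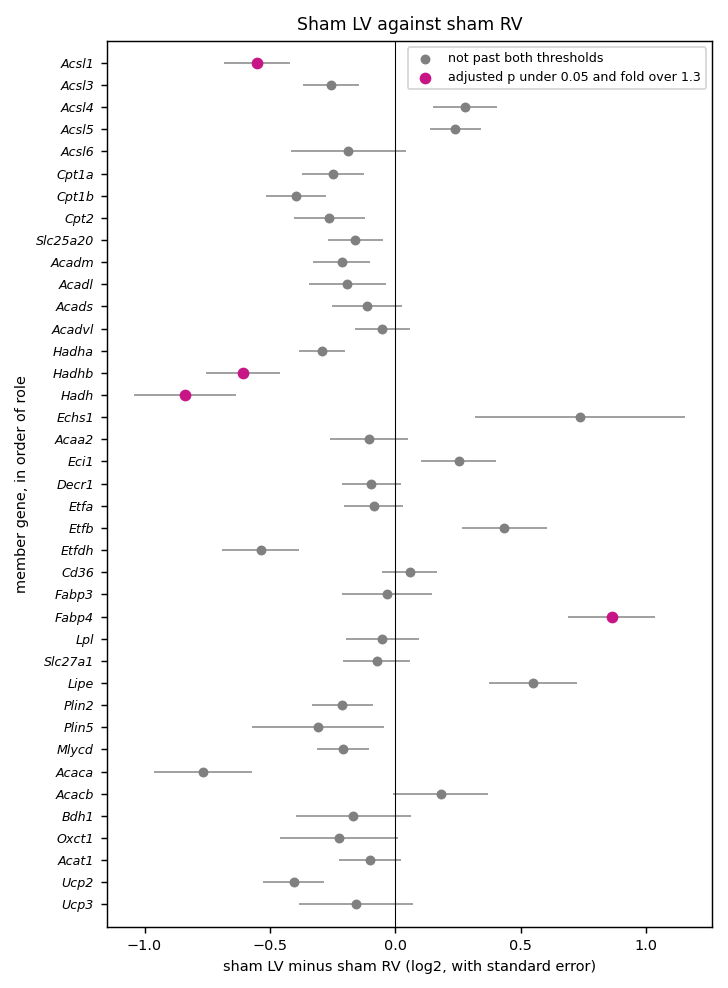
Log2 difference of each tested member between sham LV and sham RV (horizontal axis, sham LV minus sham RV, bars are the standard error from limma), in order of role (vertical axis). The 4 members past both thresholds are in magenta: Acsl1 (-0.55), Hadhb (-0.61) and Hadh (-0.84) lie left of 0 and Fabp4 (0.86) right of it.

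VO LV and sham LV were compared for the response of the left ventricle. No member passed both thresholds in limma's test, as against 0.0935% of all genes (13 of 13910; 0.0719% higher and 0.0216% lower). Without adjustment of p, 8 members were higher in VO LV and 1, Fabp4, was lower (23.1% of 39). Of all genes 15.7% were past these limits, 9.27% higher and 6.44% lower. With limma voom on reads recovered from the FPKM values, 2 members were called, Hadh and Hadhb, both higher in VO LV, while calls over all genes rose from 13 to 197. The groups did not overlap for 16 members (41%), 13 higher and 3 lower, against 32.4% of all genes, 16.7% higher and 15.7% lower. Differences above 0 were found for 27 of the 39 members and for 47.2% of all genes, and the median log2 difference was 0.14 over the members and -0.02 over all genes.

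VO RV and sham RV were compared for the response of the right ventricle. No member was called by limma or by voom, nor was any gene of the 13910 by limma (0.0%). Without adjustment of p, Acsl1 and Etfdh were lower in VO RV and no member was higher (5.13% of 39). Of all genes 4.91% were past these limits, 1.85% higher and 3.06% lower. The count of members moved from 1 to 9 when single libraries were left out, with 9 without VO RV replicate 1, where 1163 of all genes passed against 683. The groups did not overlap for 10 members (25.6%), all lower in VO RV, whereas 12.5% of all genes were apart, 5.64% higher and 6.87% lower. In the same comparison 4 of the 10 cardiomyocyte markers were lower without overlap (median log2 difference -0.14), and of the 7 macrophage markers 2 were higher without overlap and 3 without adjustment of p (median 0.29), and the part of both lists in the members' differences was not tested. These 10 members were in 7 of the 9 roles. The log2 difference was above 0 for 8 of the 39 members and for 50.6% of all genes, and its median was -0.19 over the members and 0.00 over all genes. Without sham RV replicate 1 and VO RV replicate 2, 0 members and 2 of all genes were called, 2 members passed without adjustment of p, and the median over the members was -0.18.

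VO LV and VO RV were compared for the ventricles under load. Limma and voom called 0 members, and limma called 0.00719% of all genes (1 of 13910). Without adjustment of p, 7 members were higher in VO LV and none lower (17.9%), while 7.4% of all genes were past these limits, 3.85% higher and 3.56% lower. The groups did not overlap for 11 members (28.2%), all higher in VO LV, against 16.1% of all genes, 8.45% higher and 7.69% lower. Of the 39 members 31 had a difference above 0, as did 51.0% of all genes, and the median log2 difference was 0.20 over the members and 0.01 over all genes. Without sham RV replicate 1 and VO RV replicate 2, 4 of the 39 members (10.3%) passed without adjustment of p, as did 1179 of the 13910 genes, so the share of members was then near the background. No member and 2 of all genes were called by limma, and the median over the members was 0.11. With all libraries, the 10 cardiomyocyte markers tested were all above 0 in VO LV against VO RV (median log2 difference 0.29), 3 of them past the limits without adjustment of p and 5 without overlap. In the same comparison, 6 of the 8 fibroblast markers were lower in VO LV without adjustment of p, and 6 were apart from VO RV (median log2 difference -0.55), and the part of both lists in the members' difference was not tested.

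The LV and RV responses to VO were then compared with each other, as the LV response minus the RV response. For 5 of the 39 members (12.8%) this difference passed both thresholds, and it was above 0 in all 5: Acsl1, Cpt1b, Hadh, Hadhb and Acaca. Of all genes tested, 4.19% were called, 3.46% above 0 and 0.733% below. Without adjustment of p, 14 members were above 0 and 1 below (38.5%), against 23.1% of all genes, 13.1% above and 9.94% below. At any p, 31 of the 39 members and 46.4% of all genes were above 0, and the median was 0.33 over the members and -0.04 over all genes. For Acsl1, Cpt1b, Etfdh, Hadha and Hadhb, VO libraries were all above sham in the LV and all below sham in the RV. These 5 were 12.8% of the members tested, beside 3.37% of all genes. This comparison shares its sham and VO libraries with the 4 comparisons above, so its calls are not a further observation of them.

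These 5 calls also rested on single libraries. No member was called without sham LV replicate 1 or 2, sham RV replicate 1 or 2, VO LV replicate 2 or 3 or VO RV replicate 3, and only Acsl1 was without VO LV replicate 1. Of all genes, 111 were called without VO RV replicate 3, 0 to 4 in the other fits with no member called, and 238 without VO LV replicate 1, against 583. Without VO RV replicate 1, 10 members were called, and calls over all genes also rose, to 1003. With the 2 libraries that carried Sln and Bmp10 left out together, 0 were called, 14 passed without adjustment of p, the median was 0.30, and 2 of all genes were called. The 5 members then had log2 differences of 0.90 (Acsl1), 0.63 (Cpt1b), 1.22 (Hadh), 1.01 (Hadhb) and 1.28 (Acaca), with adjusted p of 0.063 to 0.102 by limma.

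Marker genes of cell types moved in the same comparisons. Of the 10 cardiomyocyte markers tested, Ryr2, the calcium release channel, was called between the sham ventricles, lower in the LV (log2 difference -0.94, adjusted p = 0.0356 by limma), and Ryr2, Myh6 and Myh7, the channel and both cardiac myosin heavy chains, were called in the difference between the responses (1.61, 0.89 and 1.18). Between the sham ventricles the list went both ways, with 3 markers higher and 4 lower in sham LV without overlap (median log2 difference -0.11). In the difference between the responses, 7 markers were above 0 and 3 below. The summed FPKM of the cardiomyocyte markers was 26599 to 28564 in sham LV, 23440 to 27414 in sham RV, 27687 to 30564 in VO LV and 19218 to 27722 in VO RV, and the VO LV sums lay above those of sham RV. In the LV response 5 of the 10 markers were higher and 2 lower without overlap, 4 higher and 1 lower at p under 0.05 without adjustment, and their median log2 difference was 0.39. Of the 7 macrophage markers, C1qb was called below 0 in the difference between the responses (-0.92, adjusted p = 0.044 by limma), and their sum was 35.5 to 46.6 FPKM in sham, 38 to 41 FPKM in VO LV and 41.1 to 68.2 FPKM in VO RV. The 8 fibroblast markers summed to 2594 to 2789 FPKM in sham LV, 2770 to 3640 FPKM in sham RV, 2063 to 2543 FPKM in VO LV and 2533 to 4935 FPKM in VO RV, lower in VO LV than in sham LV without overlap. Of the blood and liver markers, 4 of 7 and 5 of 5 were in the table. Their sums were 2164 to 4857 and 18.6 to 22.8 FPKM in sham LV and 1157 to 2284 and 12.4 to 15.5 FPKM in sham RV, and Ttr was called higher in sham LV (0.50, adjusted p = 0.0484 by limma). Acta1 and Ckm made up the tested skeletal muscle markers, and both are also cardiac. The part of these markers in the members' results was not tested.

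**Figure D3:**
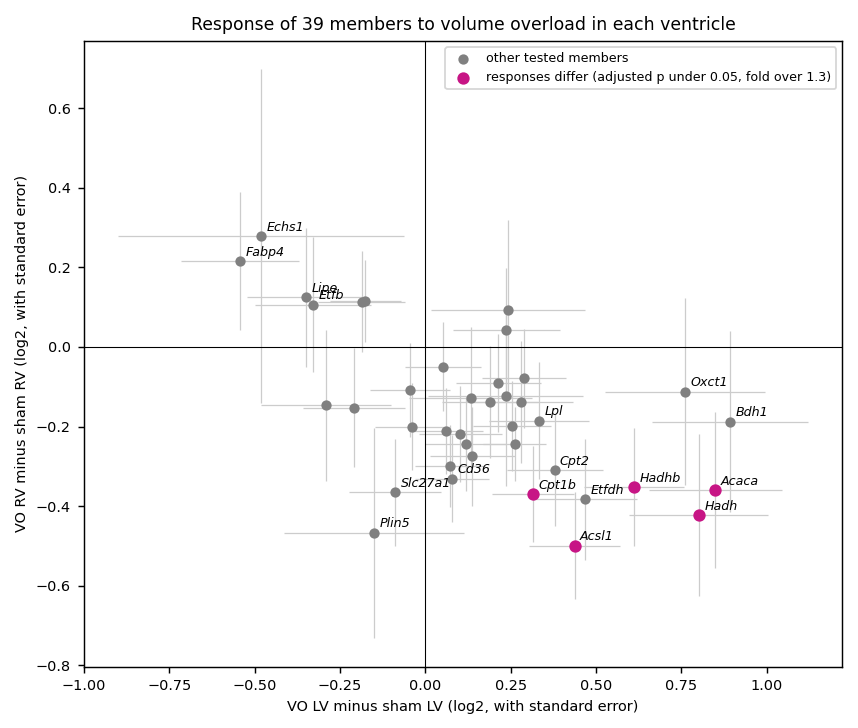
Log2 difference between VO and sham in the LV (horizontal axis) and in the RV (vertical axis) for the 39 tested members, with standard errors from limma. The 5 members whose responses differed between the ventricles, in magenta, all lie in the lower right part, above 0 in the LV (0.32 to 0.85) and below 0 in the RV (-0.50 to -0.35); both axes use the same fit, and the groups on each axis share no library.

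At the cell surface and in the cytosol, the members are Lpl, Cd36, Slc27a1, Fabp3 and Fabp4. Fabp4, a fatty acid binding protein of capillary endothelium and fat cells (ENSRNOG00000010805, chr2:93792601-93797305), was at 813, 1100 and 823 FPKM in sham LV and at 451, 507 and 533 FPKM in sham RV. It was at 655, 673 and 536 FPKM in VO LV and at 576, 461 and 716 FPKM in VO RV. Sham LV stood above each of the other groups without overlap, while VO LV and VO RV overlapped. Fabp4 was 1.82-fold higher in sham LV than in sham RV (log2 difference 0.86 ± 0.17 (SE), adjusted p = 0.0356 by limma, exact permutation p = 0.10, the smallest that 3 against 3 allows). After VO its level in the LV was lower than in sham by a log2 difference of -0.54 ± 0.17 (adjusted p = 0.107 by limma).

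Of the 9 endothelial marker genes, 8 were in the table, and their summed FPKM was 511 to 557 in sham LV, 371 to 394 in sham RV, 397 to 446 in VO LV and 369 to 469 in VO RV. Sham LV was thus above the other groups in these markers too, and Tie1, Emcn and Kdr were called higher in sham LV than in sham RV (log2 differences 0.54, 0.56 and 0.42). Cldn5 was listed at 0 in every library. Their part in the Fabp4 result was not tested. The 8 adipocyte markers summed to 1.55 to 5.04 FPKM. Most of that sum was Cfd, at 1.46 to 4.88 FPKM, the only 1 of the 8 that passed the filter. Adrb3 was listed at 0 throughout, and Adipoq and Plin1 were at 0 in 11 of the 12 libraries. Lep, Retn, Cidec and Ucp1 reached at most 0.12 FPKM.

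Lpl, the lipase of the capillary wall, was at 149, 125 and 170 FPKM in sham LV, at 141, 170 and 147 FPKM in sham RV, at 183, 175 and 198 FPKM in VO LV and at 164, 112 and 130 FPKM in VO RV. Its VO LV libraries were above all sham LV and all VO RV libraries, while the sham ventricles overlapped. The log2 difference was 0.33 ± 0.15 (SE) for VO LV against sham LV (adjusted p = 0.201 by limma) and 0.47 ± 0.15 for VO LV against VO RV (adjusted p = 0.309).

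Cd36, the fatty acid translocase, was at 23.6, 27.6 and 31.1 FPKM in sham LV, at 24.8, 28.6 and 25.3 FPKM in sham RV, at 27.4, 29.5 and 29.5 FPKM in VO LV and at 22.5, 19.0 and 20.7 FPKM in VO RV. The VO RV libraries lay below every library of the other groups, and the other 3 groups overlapped. Against VO LV the log2 difference was 0.47 ± 0.11 (SE; adjusted p = 0.239 by limma), and VO RV against sham RV gave -0.33 ± 0.11 (adjusted p = 0.542).

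Fabp3 was at 1452, 1278 and 1605 FPKM in sham LV, at 1247, 1556 and 1644 FPKM in sham RV, at 1643, 1562 and 1524 FPKM in VO LV and at 1665, 1014 and 1439 FPKM in VO RV. All pairs of groups overlapped, and the low value of 1014 FPKM was in VO RV replicate 2. The transporter Slc27a1 ranged from 14 to 23.1 FPKM, and its VO RV minus sham RV log2 difference was -0.37.

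Activation by acyl-CoA synthetases is represented by Acsl1, the main form of the heart, and Acsl3 to Acsl6. Acsl1 (ENSRNOG00000010633, chr16:48937456-49003246) was at 122, 94.1 and 114 FPKM in sham LV and at 160, 175 and 147 FPKM in sham RV. After VO it was at 136, 145 and 165 FPKM in the LV and at 134, 107 and 101 FPKM in the RV. No LV library overlapped the RV in either treatment, and no VO library overlapped sham in either ventricle. By these values the ventricles stood in the opposite order in VO, but VO LV against VO RV was not called. Its log2 difference was 0.39 ± 0.13 (SE; adjusted p = 0.333 by limma), and its nearest libraries were at 136 FPKM (VO LV) and 134 FPKM (VO RV). Sham LV was 1.47-fold below sham RV (log2 difference -0.55 ± 0.13 (SE), adjusted p = 0.0462 by limma). VO LV was above sham LV by 0.44 ± 0.13 (adjusted p = 0.0976) and VO RV below sham RV, with -0.50 ± 0.13 (adjusted p = 0.535 and unadjusted p = 0.00313 by limma). The difference between the responses was 0.94 ± 0.19 (adjusted p = 0.0317), and over the 12 fits that each left out 1 library its adjusted p was 0.0155 to 0.0929. For the protein, the paper reported a significant increase of ACSL1 in the RV under VO by western blot. The values here are RNA levels and do not measure protein.

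The other synthetases had other directions. Acsl4 and Acsl5 lay 0.28 and 0.24 above sham RV in sham LV on the log2 scale without reaching the thresholds, and Acsl3 and Acsl6 lay below it. Acsl5 was at 12.7 to 16.7 FPKM, Acsl3 at 9.67 to 13.9 FPKM, Acsl4 at 2.98 to 4.36 FPKM and Acsl6 at 0.8 to 1.74 FPKM.

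The carnitine shuttle takes the acyl group into the mitochondrion through Cpt1a, Cpt1b, Slc25a20 and Cpt2. Cpt1b, the muscle form of the malonyl-CoA-sensitive enzyme (ENSRNOG00000010438, chr7:130395194-130405347), was at 98.7, 81.2 and 94.7 FPKM in sham LV and at 112, 134 and 116 FPKM in sham RV. It was at 108, 114 and 120 FPKM in VO LV and at 107, 79.3 and 94.6 FPKM in VO RV. None of the 4 pairs of groups compared overlapped: sham LV was below sham RV, VO LV was above sham LV and above VO RV, and VO RV was below sham RV. The log2 differences were -0.40 ± 0.12 (SE; adjusted p = 0.0767 by limma) between the sham ventricles, 0.32 ± 0.12 (adjusted p = 0.153) in the LV and -0.37 ± 0.12 (adjusted p = 0.542) in the RV. VO LV against VO RV gave 0.29 ± 0.12 (adjusted p = 0.412 by limma), with the nearest libraries at 108 and 107 FPKM. The difference between the responses was 0.69 ± 0.17 (adjusted p = 0.0484).

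Cpt1a, the liver form that also serves the newborn heart, was at 30.2, 23.5 and 25.3 FPKM in sham LV, at 37.0, 29.4 and 27.9 FPKM in sham RV, at 26.3, 32.1 and 28.4 FPKM in VO LV and at 26.0, 25.7 and 25.2 FPKM in VO RV. VO RV was below sham RV and below VO LV without overlap, with log2 differences of -0.27 ± 0.12 (SE; adjusted p = 0.591 by limma) against sham RV and 0.16 for VO LV against VO RV. Across the 12 libraries, mean Cpt1b (105 FPKM) was above mean Cpt1a (28.1 FPKM) per length. Cpt2 and the carrier Slc25a20 ranged from 25.1 to 41.8 FPKM and from 64.6 to 91.3 FPKM, and the difference between the responses was 0.69 (adjusted p = 0.0689 by limma) for Cpt2 and 0.27 for Slc25a20. In the RV, all 4 shuttle members were below sham, 3 of them without overlap, where 6.87% of all genes were lower without overlap.

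**Figure D4:**
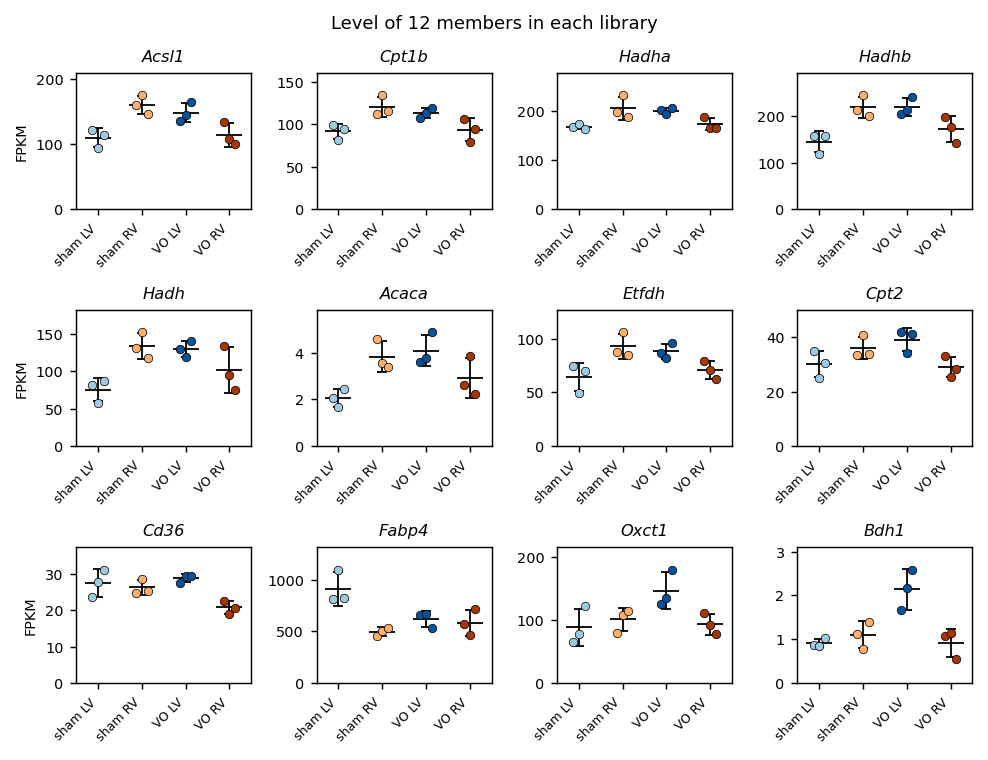
Level of 12 members in FPKM (vertical axes, starting at 0) in each library (points) of the 4 groups (horizontal axes), with the group mean (long bar) and SD (whiskers), n = 3. For Acsl1, Cpt1b, Hadha, Hadhb and Etfdh, VO LV lies above sham LV and VO RV below sham RV without overlap; Cpt2 is included because it was singled out after its values were seen.

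In beta-oxidation, Hadh (ENSRNOG00000010697, chr2:236353445-236395067) was at 81.1, 57.9 and 86.8 FPKM in sham LV and at 131, 152 and 118 FPKM in sham RV. It was at 129, 119 and 140 FPKM in VO LV and at 134, 95.5 and 75.0 FPKM in VO RV. Sham LV was below sham RV and below VO LV without overlap, while VO RV overlapped each of them. Sham LV was 1.79-fold below sham RV (log2 difference -0.84 ± 0.20 (SE), adjusted p = 0.0467 by limma), and the VO LV minus sham LV difference was 0.80 ± 0.20 (adjusted p = 0.0703). The difference between the responses was 1.22 ± 0.29 (adjusted p = 0.0424).

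Hadhb (ENSRNOG00000010800) was at 159, 119 and 158 FPKM in sham LV, at 214, 245 and 201 FPKM in sham RV, at 206, 214 and 242 FPKM in VO LV and at 198, 177 and 143 FPKM in VO RV. All 4 pairs of groups compared were apart. The log2 differences were -0.61 ± 0.15 (SE; adjusted p = 0.0465 by limma) between the sham ventricles, 0.61 ± 0.15 (adjusted p = 0.0635) in the LV and -0.35 ± 0.15 (adjusted p = 0.579) in the RV. VO LV against VO RV gave 0.36 ± 0.15 (adjusted p = 0.406 by limma). The responses differed by 0.96 ± 0.21 (adjusted p = 0.0358).

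Hadha (ENSRNOG00000024629), which shares the upstream stretch printed above with Hadhb, was at 167, 173 and 163 FPKM in sham LV, at 198, 232 and 188 FPKM in sham RV, at 202, 194 and 207 FPKM in VO LV and at 188, 166 and 166 FPKM in VO RV. It had the directions of Hadhb in the 4 pairs of groups, also without overlap, over a smaller range. Its log2 differences were -0.29 ± 0.09 (SE; adjusted p = 0.0863 by limma) between the sham ventricles, 0.26 ± 0.09 (adjusted p = 0.133) in the LV and -0.24 ± 0.09 (adjusted p = 0.56) in the RV, and the responses differed by 0.51 ± 0.13 (adjusted p = 0.0534). VO LV against VO RV gave 0.21 ± 0.09 (adjusted p = 0.421 by limma).

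Acadm, the medium-chain acyl-CoA dehydrogenase, was at 120, 102 and 110 FPKM in sham LV, at 135, 124 and 125 FPKM in sham RV, at 130, 136 and 127 FPKM in VO LV and at 133, 96.4 and 106 FPKM in VO RV. Sham LV was below sham RV and VO LV without overlap, and VO RV overlapped both sham RV and VO LV. The difference between the responses was 0.45 ± 0.16 (SE; adjusted p = 0.116 by limma). Among the 11 tested members of this role, 2 were called lower in sham LV, as were 2.35% of all genes, and 9 of the 11 differences were below 0. Echs1 had a sham LV minus sham RV difference of 0.74, with sham LV replicate 1 at 3.39 FPKM and the other 11 libraries at no more than 1.12 FPKM.

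Electrons from the dehydrogenases pass through Etfa and Etfb to Etfdh, which hands them to the respiratory chain. Etfdh was at 74.5, 49.4 and 69.8 FPKM in sham LV, at 87.8, 106 and 84.9 FPKM in sham RV, at 86.7, 82.1 and 95.8 FPKM in VO LV and at 79.1, 70.8 and 62.9 FPKM in VO RV. All 4 pairs of groups were apart, in the directions of Hadhb. The log2 differences were -0.54 ± 0.15 (SE; adjusted p = 0.068 by limma) between the sham ventricles, 0.47 ± 0.15 (adjusted p = 0.112) in the LV and -0.38 ± 0.15 (adjusted p = 0.57) in the RV, and the responses differed by 0.85 ± 0.22 (adjusted p = 0.0512). Etfb had the opposite sign between the sham ventricles, 0.43 (adjusted p = 0.139), and ranged from 287 to 563 FPKM, and Etfa ranged from 118 to 170 FPKM.

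Fatty acid is stored in droplets coated by Plin2 and Plin5 and released by Lipe and Pnpla2. Plin2 was at 50.1, 38.3 and 53.0 FPKM in sham LV, at 50.1, 56.4 and 56.0 FPKM in sham RV, at 57.4, 51.9 and 62.2 FPKM in VO LV and at 55.2, 50.7 and 47.6 FPKM in VO RV, so that all pairs of groups overlapped. Lipe, hormone-sensitive lipase, ranged from 13.7 to 25.4 FPKM, and lay 0.55 above sham RV in sham LV on the log2 scale (adjusted p = 0.0851 by limma). Plin5 ranged from 7.26 to 15.5 FPKM.

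Malonyl-CoA is made by Acaca and Acacb and removed by Mlycd. Acaca, the cytosolic carboxylase that also feeds fatty acid synthesis (ENSRNOG00000034013, chr10:71536533-71719910), was at 2.05, 1.68 and 2.43 FPKM in sham LV and at 4.58, 3.56 and 3.38 FPKM in sham RV. It was at 3.62, 3.79 and 4.87 FPKM in VO LV and at 2.64, 3.86 and 2.25 FPKM in VO RV. Sham LV was below sham RV and VO LV without overlap, and VO RV overlapped both sham RV and VO LV. The difference between the responses was 1.21 ± 0.28 (log2, SE; adjusted p = 0.0407 by limma), while the sham ventricles differed by -0.77 ± 0.20 (adjusted p = 0.0508).

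Acacb, the mitochondrial carboxylase that limits the carnitine step, was at 43.1, 49.4 and 32.9 FPKM in sham LV, at 35.8, 34.9 and 38.1 FPKM in sham RV, at 32.8, 38.5 and 29.8 FPKM in VO LV and at 35.4, 24.0 and 40.9 FPKM in VO RV. All pairs of groups overlapped, and the responses differed by -0.14 ± 0.27 (SE; adjusted p = 0.764 by limma). Mlycd ranged from 51.8 to 76.6 FPKM.

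Ketone bodies are used through Bdh1, Oxct1 and Acat1. Oxct1, the enzyme that commits acetoacetate to oxidation, was at 65.5, 77.4 and 121 FPKM in sham LV, at 79.2, 108 and 115 FPKM in sham RV, at 125, 134 and 179 FPKM in VO LV and at 110, 91.0 and 76.9 FPKM in VO RV. VO LV was above sham LV and VO RV without overlap, whereas the sham ventricles overlapped. The log2 difference was 0.76 ± 0.23 (SE; adjusted p = 0.0991 by limma) for VO LV against sham LV and 0.65 ± 0.23 (adjusted p = 0.351) for VO LV against VO RV.

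Bdh1, which interconverts 3-hydroxybutyrate and acetoacetate, was at 0.863, 0.846 and 1.02 FPKM in sham LV, at 1.12, 0.779 and 1.40 FPKM in sham RV, at 1.67, 2.16 and 2.59 FPKM in VO LV and at 1.07, 1.13 and 0.538 FPKM in VO RV. VO LV again stood above each other group. The log2 difference was 0.89 ± 0.23 (SE; adjusted p = 0.0703 by limma) against sham LV and 0.91 ± 0.23 (adjusted p = 0.25) against VO RV. Acat1 ranged from 133 to 188 FPKM.

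Ucp2 and Ucp3 are mitochondrial carriers named for their likeness to the uncoupling protein of brown fat. Ucp2 was at 203, 176 and 183 FPKM in sham LV, at 205, 281 and 261 FPKM in sham RV, at 184, 200 and 217 FPKM in VO LV and at 217, 197 and 223 FPKM in VO RV. Sham LV was below sham RV without overlap (log2 difference -0.41 ± 0.12 (SE), adjusted p = 0.0756 by limma), and the other pairs compared overlapped. Ucp3 was at 1.40, 1.63 and 1.3 FPKM in sham LV, at 1.21, 2.48 and 1.47 FPKM in sham RV, at 1.80, 1.78 and 1.79 FPKM in VO LV and at 2.54, 1.34 and 1.66 FPKM in VO RV. Its VO LV libraries were above sham LV, with a log2 difference of 0.24 ± 0.23 (adjusted p = 0.544 by limma).

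A second list of 70 other genes of fatty acid and ketone handling was read for the same comparisons. Of these, 67 were in the table and 60 were tested. Between the sham ventricles 6 of the 60 were called (10%), 1 higher and 5 lower in sham LV, against 3.85% of all genes (1.5% higher and 2.35% lower). Between the responses 9 were called (15.0%), all above 0, against 4.19% of all genes (3.46% above 0 and 0.733% below). The LV response had 1 call (1.67% of the 60, against 0.0935% of all genes). By limma the RV response and VO LV against VO RV had 0, with 1 gene higher and 5 lower in the first and 12 higher and 3 lower in the second at p under 0.05 without adjustment, where 4.91% and 7.4% of all genes passed (10% and 25% of the list). The median log2 difference was -0.13 between the sham ventricles, 0.14 in the LV, -0.09 in the RV and 0.25 between the responses.

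Lpin1, a phosphatidic acid phosphatase of triglyceride synthesis that also acts as a transcriptional cofactor, was at 3.30, 2.97 and 3.04 FPKM in sham LV, at 8.64, 8.09 and 5.97 FPKM in sham RV, at 7.49, 8.46 and 9.18 FPKM in VO LV and at 6.11, 7.15 and 3.68 FPKM in VO RV. Sham LV lay below every library of the other groups. Lpin1 was the one gene of the list called in the LV response, with a log2 difference of 1.3 ± 0.20 (SE; adjusted p = 0.0498 by limma), and its responses differed by 1.72 ± 0.29 (adjusted p = 0.0249).

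Gpam, the mitochondrial enzyme that starts glycerolipid synthesis, was at 5.20, 3.76 and 5.89 FPKM in sham LV, at 18.4, 11.8 and 8.76 FPKM in sham RV, at 11.7, 13.9 and 16.1 FPKM in VO LV and at 9.05, 8.61 and 4.99 FPKM in VO RV. Sham LV was below sham RV and VO LV without overlap and overlapped VO RV. The sham ventricles differed by -1.27 ± 0.28 on the log2 scale (SE; adjusted p = 0.0387 by limma) and the responses by 2.14 ± 0.39 (adjusted p = 0.0277).

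Pdk4, the kinase that closes pyruvate dehydrogenase when fat is burned, was at 10.3, 3.96 and 9.50 FPKM in sham LV, at 24.2, 20.6 and 12.6 FPKM in sham RV, at 30.9, 31.7 and 41.1 FPKM in VO LV and at 25.7, 19.9 and 8.86 FPKM in VO RV. VO LV stood above each other group. The LV response was 2.15 ± 0.41 on the log2 scale (SE; adjusted p = 0.0519 by limma) and the responses differed by 2.30 ± 0.58 (adjusted p = 0.0491).

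Slc16a1, the monocarboxylate transporter for lactate and ketone bodies, was at 51.7, 41 and 66.8 FPKM in sham LV, at 106, 105 and 96.3 FPKM in sham RV, at 81.0, 85.4 and 130 FPKM in VO LV and at 81.8, 58.3 and 57.0 FPKM in VO RV. Sham RV was above both sham LV and VO RV without overlap, and VO LV was above sham LV. The sham difference was -0.97 ± 0.21 on the log2 scale (SE; adjusted p = 0.0387 by limma) and the responses differed by 1.54 ± 0.30 (adjusted p = 0.0309).

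Crat, carnitine acetyltransferase, was at 83.4, 58.2 and 77.2 FPKM in sham LV, at 105, 143 and 111 FPKM in sham RV, at 99.8, 109 and 110 FPKM in VO LV and at 104, 88.1 and 84.2 FPKM in VO RV. Sham LV was below every library of the other groups, by a log2 difference of -0.72 ± 0.15 (SE; adjusted p = 0.0364 by limma) against sham RV. Gpihbp1, the endothelial protein that anchors Lpl in the capillary, was at 101, 136 and 113 FPKM in sham LV, at 53.5, 68.8 and 71.5 FPKM in sham RV, at 89.7, 101 and 78.7 FPKM in VO LV and at 90.8, 62.4 and 102 FPKM in VO RV. It was the one gene of the list called higher in sham LV (log2 difference 0.85 ± 0.19, adjusted p = 0.0387 by limma), where the summed endothelial markers were also higher, and their part in it was not tested.

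Acadsb, which oxidises branched short-chain acyl groups, was also called lower in sham LV (log2 difference -0.67, adjusted p = 0.0402 by limma) and in the difference between the responses (0.94). Acad9, Acsf2 and Plin4 were called in the difference between the responses alone, at 0.63, 1.10 and 1.34 on the log2 scale. Plin3, a droplet coat protein, and Mgll, the lipase of monoacylglycerol, had the smallest p of the list in the RV response (log2 difference 0.33, adjusted p = 0.542 by limma) and between VO LV and VO RV (0.46, adjusted p = 0.239), and neither was called. These calls of the second list were kept in 2 to 7 of the 12 fits that each left out 1 library. Those between the sham ventricles had their highest adjusted p without sham RV replicate 1 (0.121 to 0.149), and those of the LV response and of the difference between the responses without VO LV replicate 3 (0.0826 to 0.249).

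**Figure D5:**
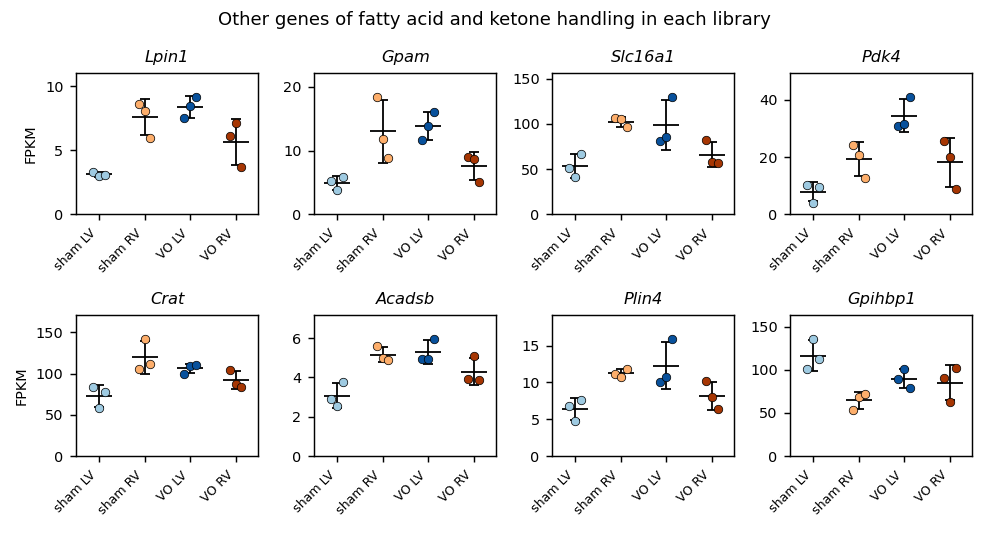
Level in FPKM (vertical axes, starting at 0) of 8 genes of the second list in each library (points) of the 4 groups (horizontal axes), with the group mean (long bar) and SD (whiskers), n = 3. Sham LV is the lowest group in 7 of the 8 panels by its mean and the highest for Gpihbp1.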

How the data were processed

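RNA from ventricular free wall was sequenced in 12 libraries, 3 per group. The authors deposited FPKM per gene; per the labels, the processing used HISAT2 2.0.5, StringTie 1.3.3b and featureCounts 1.5.0-p3, and the genome build is not given in the sources used here. The authors' DESeq2 test was not repeated. FPKM values were divided by median-ratio size factors (0.996 to 1.00), and log2(value + 0.5) was fitted in 1 model of 4 groups with limma 3.58.1 (R 4.3.3), with a mean-variance trend, for the 13910 genes whose mean FPKM was 0.5 or more. A fold change is on that log2(FPKM + 0.5) scale, which understates changes of low genes. P-values were adjusted by Benjamini-Hochberg over all 13910 genes; a gene was called at an adjusted p under 0.05 with a fold over 1.3. With 3 libraries against 3, an exact two-sided permutation test cannot go below 0.10. FPKM times gene length gave whole reads (within 0.02) for 100% of values under 200 reads, and voom on those reads was an alternative. The scripts were tested on simulated data.

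Replicate numbers occur in each group. Same-numbered libraries had correlations of deviations from -0.22 to 0.12, so the numbers were not taken to pair libraries. Members and gene lists were chosen with earlier results of these data known. Values per library are given for members called in any comparison, the 3 with the smallest p in each, and role leaders. Of the second list, the text gives values per library for Lpin1, Gpam, Pdk4, Slc16a1, Crat and Gpihbp1. Acadsb, Acad9, Acsf2, Plin4, Plin3 and Mgll are given there by log2 difference, and the rest by count. Acadsb has 2 rows, and the higher was used. Marker lists (cardiomyocyte, atrial cardiomyocyte, endothelial, fibroblast, macrophage, adipocyte, blood, liver, skeletal muscle) were summed in FPKM. Promoter sequences came from RefSeq GRCr8, and no coordinates were moved between builds.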

Additional observations from a re-analysis of the deposited data

Results flagged for a closer look

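The following genes had responses to volume overload that differed between the LV and the RV by limma's test of that difference, given as LV response minus RV response on the log2 scale. Among the members the values were 0.94 for Acsl1, 0.69 for Cpt1b, 0.96 for Hadhb, 1.22 for Hadh and 1.21 for Acaca. In the second list they were 0.92 for Crat, 2.30 for Pdk4, 1.54 for Slc16a1, 0.63 for Acad9, 0.94 for Acadsb, 1.10 for Acsf2, 2.14 for Gpam, 1.72 for Lpin1 and 1.34 for Plin4. All 14 values are above 0, as were most calls over all genes in this comparison (481 above 0 and 102 below). In the 12 fits that each left out 1 library, none of the 14 was called in every fit. The same 12 libraries enter all of these differences, so the genes are not independent of each other.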

How the results depend on the processing

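The direction of the 43 member differences past an unadjusted p of 0.05 and a fold of 1.3 was the same under all 1103 combinations of gene and alternative. These differences were picked for their size in the same libraries, so a change of sign was unlikely from the start. The kept direction is therefore a description and no support for them. Calls moved between alternatives. Between the sham ventricles the 4 called members became 7 with quantile normalization and 9 with array weights, while calls over all genes went from 536 to 636 and 1321. They became 0 with all 21603 genes above 0 tested (8 calls over all genes), 1 with a separate fit of the 2 groups (314), 1 with the mitochondrial share as a covariate (319), 0 without the 2 RV libraries with Sln and Bmp10 (7), and 0 without the 2 libraries of lowest weight, sham LV replicate 2 and VO RV replicate 2 (5). The last 3 alternatives were chosen after seeing the data. With a replicate block, 0 members were called between the sham ventricles and 0 for the difference of responses, and the block called 0 of all genes in both, against 536 and 583 without it (2260 and 2672 genes at unadjusted p with it). Of the calls for the difference of responses (5), 0 were left with all genes above 0, 0 without the Sln and Bmp10 pair and 0 without the lowest-weight pair, whose median was 0.21 against 0.33; calls over all genes were 21, 2 and 11 against 583. With the gene-length trend removed, Acsl1 was lost between the sham ventricles (3 calls left) and Cpt1b in the difference of responses (4 left), and with the mitochondrial share as a covariate the latter lost Acaca and gained Cpt2 and Etfdh (6 calls). The LV response had 2 calls with voom and 4 with array weights against 0 (197 and 704 over all genes, against 13). At unadjusted p, the RV response went from 2 to 6 members with array weights (683 to 822 over all genes), and VO LV against VO RV from 7 to 4 without the Sln and Bmp10 pair (1030 to 1179 over all genes). The causes were not tested.

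Leaving out 1 library gave 0 to 5 called members between the sham ventricles, 0 to 4 in the LV response (4 without VO RV replicate 3, with 554 over all genes) and 0 to 10 for the difference of responses; the RV response gave 1 to 9 members at unadjusted p (403 to 1163 over all genes) and a median of -0.28 to -0.11, and VO LV against VO RV gave 4 to 12 members (728 to 1594) and a median of 0.11 to 0.26. For the difference of responses, the median was 0.27 to 0.42 and the members at unadjusted p were 12 to 20 (2302 to 3820 over all genes). In the sham comparison the median was -0.18 to -0.10 and 7 to 11 members were at unadjusted p (1757 to 2973 over all genes), and in the LV response 0.09 to 0.18 and 6 to 13 (1366 to 2698). The same-number correlations of -0.22 to 0.12 did not all exceed 0.1, and not every library correlated best with its own number. With 3 libraries per group, the adjusted p of a called member moved across 0.05 when any of several libraries was left out. The rows of Echs1 and Pnpla2 hold few reads and may miss reads of their genes.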
